A study of Mus musculus with 6 samples.

Results

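The protocadherin genes are described here, taken as every gene spot on the array whose gene name starts with Pcdh. This rule found 71 of 43379 gene spots per array, which stand for 44 of 28786 gene names. By name, 31 genes belong to the clustered sets, with 3 Pcdha genes (6 spots), 22 Pcdhb genes (29 spots) and 6 Pcdhg genes (10 spots), and 13 genes (26 spots) are non-clustered. RNA of Dnmt3a-null (KO) neural stem cells was compared with RNA of wild type (WT) neural stem cells, both from mice aged 14 to 21 postnatal days and grown from the subventricular zone, which lines the lateral ventricles. On every one of the 6 arrays a KO sample and a WT sample were hybridised together, labelled with Cy3 and Cy5. Differentiating cells filled 2 arrays, having been replated with mitogens for 2 days and then kept without them for 3 days, and on 4 arrays they were proliferating in FGF-2 and EGF at 10 ng/ml each. KO RNA was labelled with Cy5 in replicates 1 and 3 of the proliferating and replicate 2 of the differentiating cells, and with Cy3 elsewhere. The labels give neither the mouse strain nor how the null allele was made. They call the proliferating arrays biological replicates, but do not say how many animals stand behind a culture.

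Protocadherins are calcium-dependent adhesion proteins of the cadherin superfamily, best known from neurons. The clustered genes lie side by side on one chromosome as the alpha, beta and gamma sets. An alpha or gamma mRNA joins one first exon, chosen by its own promoter, to a downstream part shared by the whole set, whereas a beta gene is a single exon that encodes its whole protein. Combinations of the clustered proteins give a neuron a surface identity by which its branches recognise each other, and promoter choice is known to involve CTCF, cohesin and DNA methylation. Non-clustered protocadherins are separate genes with roles in axon growth, synapse formation and cell sorting.

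Dnmt3a encodes the de novo DNA methyltransferase removed in KO cells. It had a log2 ratio (KO over WT) of -1.38 ± 0.14 on the 2 differentiating arrays and -0.96 ± 0.22 on the 4 proliferating arrays (SD). Its probe reports remaining transcript and does not show the allele. Between 52.0% and 58.8% of gene spots were well above background in a channel, and the number of arrays limits the precision of every value. The 8 neural stem cell markers were well above background on all 4 KO proliferating arrays, and 7 of the 8 were on all 4 WT proliferating arrays. Of 6 microglial markers, 5 were not well above background on any proliferating array and 6 on any differentiating array, in both genotypes. Sex-linked RNA was unequal between the channels of proliferating replicates 3 and 4. There Ddx3y (Y-linked) had log2 signals of 8.46 and 8.83 in KO cells, against 6.05 and 5.89 in WT cells, and Xist (expressed from an inactive X) had 11.27 and 11.06 in KO cells, against 12.69 and 13.34 in WT cells. All 4 proliferating arrays shared one slide and scan and both differentiating arrays another, so condition and slide cannot be told apart, while KO and WT were always compared within an array.

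Of the 44 protocadherin genes, 39 had a probe well above background in at least 1 channel, and 22 had a probe well above background in both channels of all 6 arrays. The 22 were 13 Pcdhb genes, 2 Pcdha genes, 2 Pcdhg genes and the 5 non-clustered genes Pcdh1, Pcdh9, Pcdh10, Pcdh17 and Pcdh19. Pcdhb1, Pcdhga9, Pcdhga12, Pcdhgb4 and Pcdh20 were not well above background in any channel. Pcdh12, known from vascular endothelium, and Pcdh21, a photoreceptor protocadherin now named Cdhr1, were well above background on too few arrays to be tested. This left 37 genes (21 Pcdhb, 3 Pcdha, 3 Pcdhg and 10 non-clustered) that were tested at their probe of highest mean intensity. A gene passed when its Benjamini-Hochberg adjusted p over all 18062 genes tested was under 0.05.

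The probes along the clusters lay on chromosome 18 (build mm7), from 37331289 to 37563623 for Pcdha, from 37643329 to 37897275 for Pcdhb and from 38040257 to 38217985 for Pcdhg. A gap of 156 kb split the Pcdha probes, and one of 70.2 kb the Pcdhg probes, with 3 probes after each gap. These downstream probes were taken to lie in the part that all mRNAs of their set share, so they report the set and not the single gene in their name. The probes chosen by intensity for Pcdha6, Pcdha9 and Pcdhga7 are such shared probes. The shared Pcdhga7 probe had log2 signals between 14.94 and 15.21 in KO and between 14.98 and 15.24 in WT proliferating cells. The probe of Pcdhga7 in its own first exon is described apart from it below. The Pcdhb genes resemble each other in sequence, so their probes may take up RNA of neighbouring copies, and the single gene is uncertain.

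Pcdhb genes were lower in KO than in WT proliferating cells. Of the 21 tested, 7 passed and all 7 fell (Pcdhb5, Pcdhb6, Pcdhb10, Pcdhb14, Pcdhb16, Pcdhb17 and Pcdhb21), in a comparison in which 0.338% of all genes passed as lower. The 21 genes had log2 ratios between -1.18 and -0.28 with a median of -0.56, or 1.48-fold lower, while all genes tested had a median of -0.01. All 21 Pcdhb genes were below 0 on all 4 proliferating arrays, which 8.44% of all genes were. Among them Pcdhb2 and Pcdhb13 were well above background only in WT channels. Pcdhb12 was so in the KO channel of 1 array, too few to be tested without its WT channels. The filter thus favoured a value below 0 for Pcdhb2, Pcdhb12 and Pcdhb13. No Pcdha, Pcdhg or non-clustered gene passed, and the medians of these classes were -0.04, -0.06 and 0.03. Beta proteins carry the extracellular cadherin repeats of the family and lack the cytoplasmic part that the alpha and gamma sets share. In bulk RNA, fewer expressing cells and less RNA per cell cannot be told apart.

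**Figure D1:**
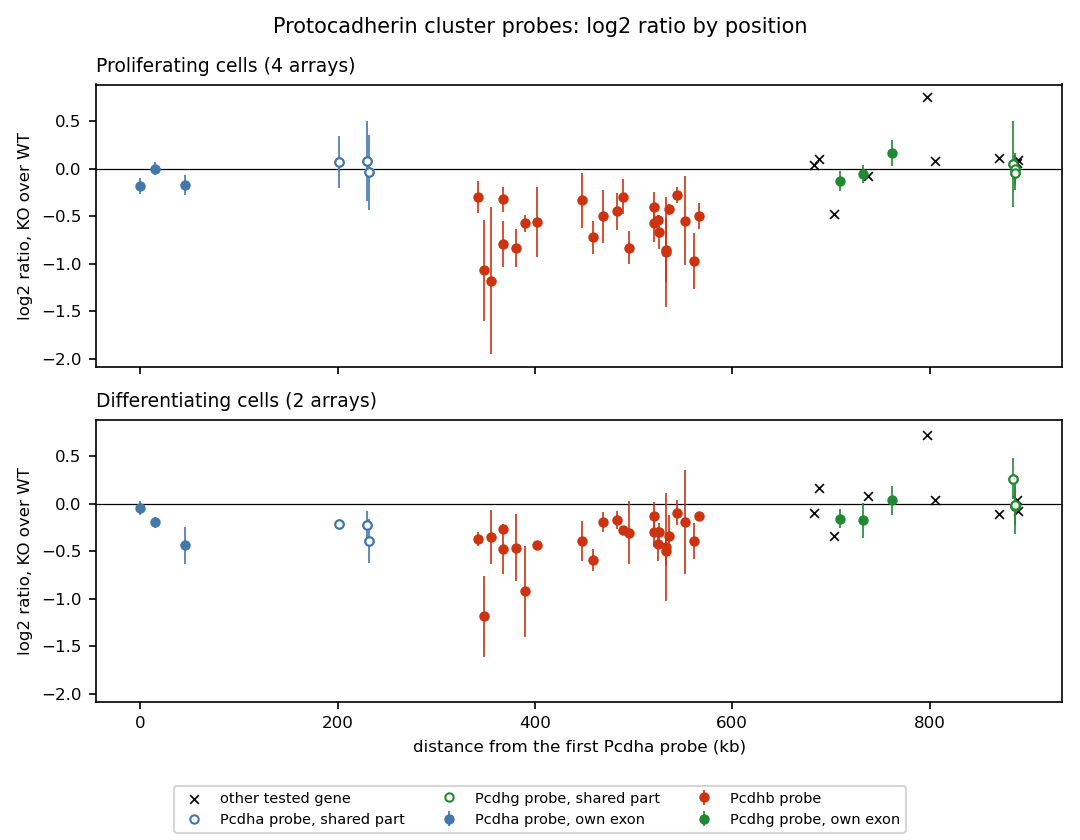
Mean log2 ratio (KO over WT) of each tested probe of the clustered genes against its distance in kb from the first Pcdha probe, for proliferating (top) and differentiating cells (bottom), with bars of 1 SD over arrays. Open circles are probes in the shared downstream part of the Pcdha and Pcdhg sets, and crosses are other genes tested in the region. All Pcdhb probes shown lie below 0 in proliferating cells, while Pcdha and Pcdhg probes lie near 0.

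Pcdhb21 gave the largest fall of the 7 and the brightest signals. Its log2 signals were 10.34, 9.66, 9.55 and 10.48 in KO proliferating cells, against 11.32, 11.00, 10.48 and 11.10 in WT proliferating cells. All 4 KO values were below all 4 WT values, by a narrow margin at the nearest pair, and the log2 ratio averaged -0.97 ± 0.29 (SD, n = 4), or 1.96-fold lower (limma adjusted p = 0.0442). Pcdhb6 had 9.15, 8.76, 8.55 and 9.42 in KO cells, against 9.83, 9.87, 9.24 and 10.30 in WT cells. Its groups overlapped between arrays, but KO was lower on each array, by -0.84 ± 0.20 on the log2 scale (1.79-fold, adjusted p = 0.0170). Pcdhb5 had 8.89, 8.34, 8.69 and 9.09 in KO cells, against 9.46, 9.43, 9.33 and 9.97 in WT cells. All 4 KO values were below all 4 WT values, with a ratio of -0.79 ± 0.24 (1.73-fold, adjusted p = 0.0170).

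Pcdhb14 had log2 signals of 7.36, 6.73, 7.16 and 7.57 in KO proliferating cells, against 8.12, 7.55, 7.82 and 8.64 in WT proliferating cells. The ranges met at the highest KO and lowest WT array, and the ratio was -0.83 ± 0.18 (1.78-fold lower, adjusted p = 0.0197). Pcdhb10 had 7.04, 7.52, 6.91 and 7.66 in KO cells, against 7.75, 8.01, 7.82 and 8.45 in WT cells. The groups did not overlap, and the ratio was -0.72 ± 0.18 (1.65-fold lower, adjusted p = 0.0369). Pcdhb16 had 7.10, 7.03, 6.94 and 7.29 in KO cells, against 7.59, 7.53, 7.51 and 7.90 in WT cells. It had the most even fall of the 7, with no overlap and a ratio of -0.55 ± 0.06 (1.46-fold lower, adjusted p = 0.0384). Of all 21 tested Pcdhb genes, 5 had every KO signal below every WT signal, as did 0.715% of all genes.

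Pcdhb17 differed in spread. Its log2 signals were 8.73, 7.70, 8.42 and 9.24 in KO cells, against 9.11, 9.15, 8.80 and 10.54 in WT cells, and the groups overlapped. KO was lower on each array, but the log2 ratio was -1.45 and -1.31 on the 2 arrays with KO RNA in Cy3 and -0.38 on both arrays with KO RNA in Cy5. The mean was -0.88 ± 0.58 (1.84-fold lower, adjusted p = 0.0154 with the dye term), and without a dye term the gene did not pass. Its second probe gave -0.65, -1.21, -0.50 and -1.08 and also passed when every probe was tested on its own (adjusted p = 0.0201). The second probe of Pcdhb16 passed as well (adjusted p = 0.0440), with 0.280% of all probes passing as lower. A dimmer second probe of Pcdhb5 had -0.28, -0.21, -0.29 and -0.52 and did not pass (1.25-fold lower, adjusted p = 0.138).

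**Figure D2:**
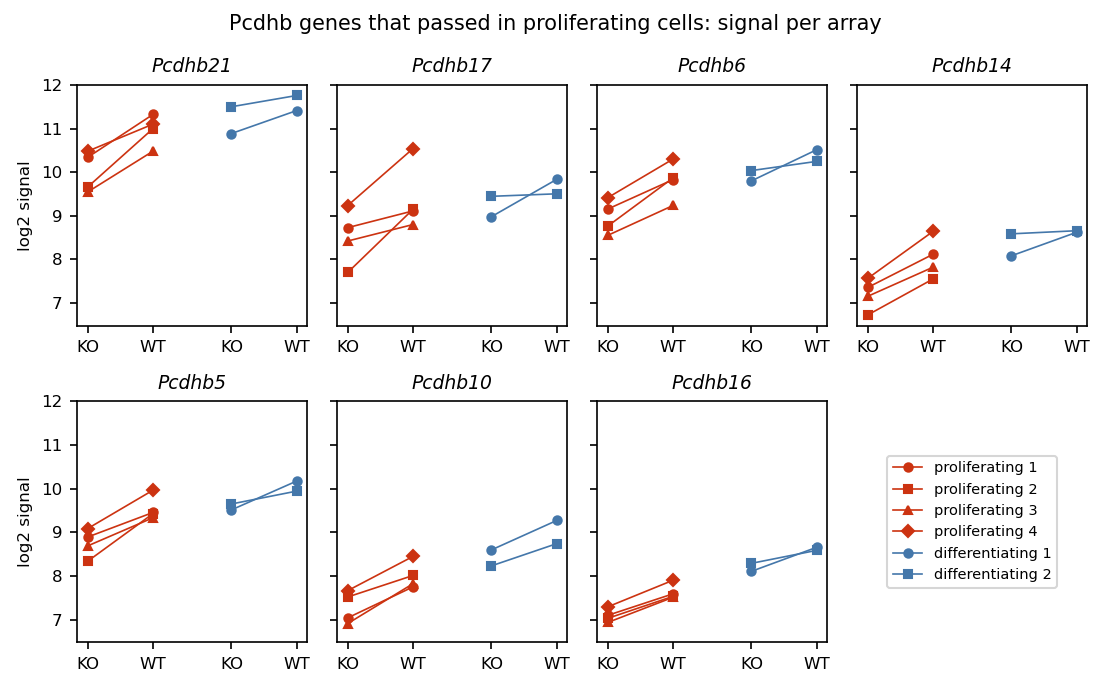
Log2 signal of the 7 Pcdhb genes that passed in proliferating cells, KO left and WT right within each array, with a line joining the 2 channels of an array (red, 4 proliferating arrays; blue, 2 differentiating arrays). Every line rises towards WT, from a fall of 1.45 in Pcdhb17 on proliferating replicate 2 to a difference near 0 for Pcdhb17 and Pcdhb14 on differentiating replicate 2.

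The other 14 tested Pcdhb genes did not pass in proliferating cells. The 4 of smallest p among them were Pcdhb22 (-0.50 ± 0.14, adjusted p = 0.0567), Pcdhb20 (-0.55 ± 0.47, adjusted p = 0.0597), Pcdhb7 (-0.58 ± 0.09, adjusted p = 0.0658) and Pcdhb15 (-0.57 ± 0.20, adjusted p = 0.0693). Pcdhb3 and Pcdhb4 had the lowest mean ratios of the class, with wide spread. Pcdhb4 had ratios of -0.42 and -0.60 on proliferating replicates 1 and 2 and of -1.85 and -1.84 on replicates 3 and 4, where sex-linked RNA was unequal (mean -1.18 ± 0.77, adjusted p = 0.149). Pcdhb3 had -0.47, -0.79, -1.41 and -1.61 (mean -1.07 ± 0.53, adjusted p = 0.0928). Pcdhb18 (-0.43 ± 0.06) and Pcdhb19 (-0.28 ± 0.08), both well above background in all channels, had the smallest shifts of the constantly detected Pcdhb genes with little spread, at adjusted p = 0.0814 and 0.156. Pcdhb13 did not clear the background in any KO channel. Its measured signal was 1.23-fold lower in KO proliferating cells (means 6.35 in KO and 6.65 in WT cells, adjusted p = 0.136). Pcdhb2 was not well above background in either genotype of proliferating cells, so no fold is given there.

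The class medians per array carry the same contrast. The Pcdhb median was -0.40 on proliferating replicate 1, -0.51 on replicate 2, -0.58 on replicate 3 and -0.75 on replicate 4. Both dye orientations gave medians below 0. With Agilent's own processed signals, which have no offset, the Pcdhb median was -1.04 and 12 Pcdhb genes passed. In that setting the median of all genes was -0.04, and 1.54% of all genes passed in either direction, against 0.952% in the reported fit. Fitted without any one of the 6 arrays, between 0 and 3 protocadherin genes passed, all Pcdhb, while the count over all genes went between 0 and 171, against 172 with all arrays, and 0 members passed in the fit of the 4 proliferating arrays alone, where no gene of the whole table passed with limma although 20 of the 37 protocadherin genes had an unadjusted p under 0.05. Without replicates 3 and 4, where sex-linked RNA was unequal, the Pcdhb median was -0.51 and only Pcdhb21 of the 7 passed (-1.16, adjusted p = 0.0339), while the other six had ratios between -0.92 and -0.50. In that fit the non-clustered Pcdh17 also passed as lower in KO cells (-1.85, adjusted p = 0.0176), so the calls were then not limited to Pcdhb, and 1.18% of all genes passed in either direction. With all arrays, 111 of all 18062 genes passed as higher and 61 as lower in KO proliferating cells. Markers of the oligodendrocyte lineage differed on the same arrays, with 2 of 12 passing as higher and summed signals of 64098 to 149313 in KO cells, against 51395 to 75535 in WT proliferating cells. Of 5 tested interneuron markers 1 passed as lower, with array medians of -0.08, -0.39, -1.72 and -2.15 and summed signals of 545 to 806 in KO cells, against 1295 to 4286 in WT cells. Their medians were lowest on replicates 3 and 4. So were the ratios of several Pcdhb genes, among them Pcdhb10 and Pcdhb16, which passed. Pcdhb2, Pcdhb3, Pcdhb4, Pcdhb8, Pcdhb9, Pcdhb11, Pcdhb15 and Pcdhb18, which did not pass, were also lowest there. Other Pcdhb genes had another order, among them Pcdhb5, Pcdhb6 and Pcdhb21, which were lowest on replicate 2. The part of these markers in the Pcdhb difference was not tested.

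**Figure D3:**
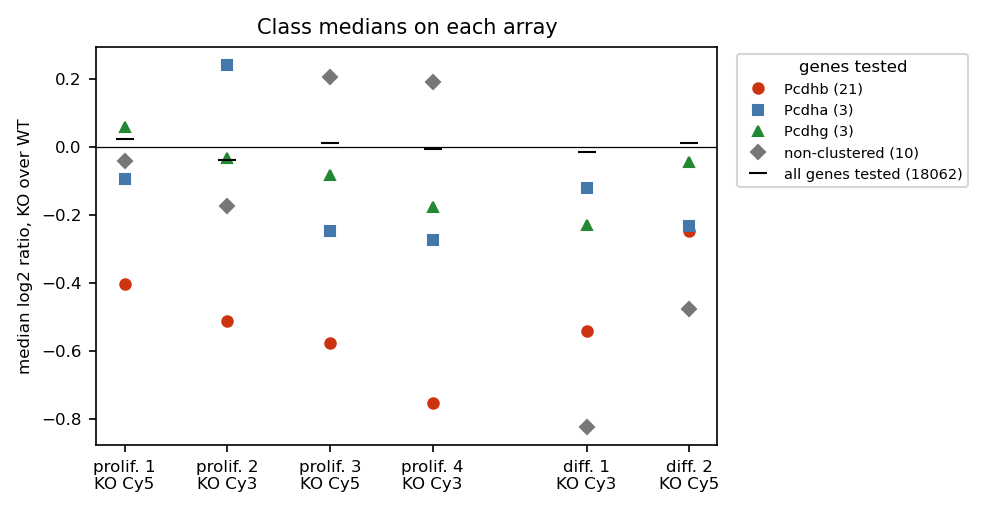
Median log2 ratio (KO over WT) of the tested genes of each class on each array, with the dye of the KO RNA under the array and the median of all 18062 genes as a dash. The Pcdhb medians lie between -0.75 and -0.25 on all 6 arrays, below the median of all genes.

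Pcdha and Pcdhg probes showed smaller ratios in proliferating cells. The Pcdha4 probe in its own first exon was well above background on 1 of 4 arrays per genotype and had ratios of -0.09, -0.14, -0.23 and -0.27 (adjusted p = 0.283). The Pcdha9 probe in its own first exon had -0.03, -0.25, -0.16 and -0.25, and that of Pcdha6 had -0.08, -0.01, 0.08 and 0.01. Of the shared Pcdha probes, that named Pcdha9 had -0.29, 0.54, -0.26 and 0.34, and that named Pcdha6 had 0.34, 0.24, -0.25 and -0.49, so their signs differed between arrays. Pcdhga1 (-0.13 ± 0.11, adjusted p = 0.437) and Pcdhga4 (-0.06 ± 0.10, adjusted p = 0.762) report their own first exons. The first-exon probe of Pcdhga7 had 0.34, 0.17, 0.01 and 0.14. The brightest shared Pcdhg probe had 0.23, -0.11, -0.14 and -0.16 (adjusted p = 0.860).

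Genes around the clusters were listed by probe position within 500 kb on either side, a rule set after member values were known. Of 34 tested non-protocadherin genes there, 1 rose and none fell in proliferating cells, and their median was -0.02. Of all 18062 genes, 111 rose and 61 fell. The one that rose was AK016576, an unnamed transcript whose probe lies within the Pcdhg span on the opposite strand (chromosome 18, 38128505 to 38128563, mm7). Its ratios were 0.70, 0.65, 0.66 and 0.99 in proliferating cells (adjusted p = 0.0254) and 0.80 and 0.64 in differentiating cells (adjusted p = 0.0381). The unnamed 3222401L13Rik, between the Pcdhb and Pcdhg probes, had -0.26, -0.59, -0.51 and -0.54 in proliferating cells (adjusted p = 0.0575). Taf7, Diaph1 and Hdac3, which lie in or just past the cluster region, did not pass, with ratios of 0.10, 0.09 and -0.01.

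None of the 10 tested non-clustered protocadherin genes passed in proliferating cells (0 by limma, also 0 at an unadjusted p under 0.05). Their members did not move as one. Pcdh17, which helps organise presynaptic terminals, had ratios of -1.62 and -2.08 on proliferating replicates 1 and 2, but 0.80 and 1.07 on replicates 3 and 4, and among the alternatives run it passed as lower only when replicates 3 and 4 were both left out. Its log2 signals were 9.58, 9.53, 9.38 and 10.47 in KO cells, against 11.19, 11.62, 8.58 and 9.41 in WT cells, so the WT channel differed most between arrays. A second Pcdh17 probe gave -1.60, -1.37, 0.24 and 0.82. Pcdh19, an X-linked gene known from epilepsy, had 0.38, -0.20, -0.92 and -1.55 (mean -0.57 ± 0.84, adjusted p = 0.401), with its low values on the 2 arrays where sex-linked RNA was unequal. Its dimmer second probe had 0.06, 0.26, -0.37 and -0.22. Pcdh11x, the other X-linked member, had -0.72, -0.41, -0.11 and 0.16 (adjusted p = 0.416). Pcdh8, known from synapses and from cell movement in the embryo, had 0.64, -0.35, 0.38 and 0.95 (adjusted p = 0.411), and Pcdh7 had -0.31, 0.67, 0.50 and 0.33 (adjusted p = 0.390).

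Pcdh10, known from axon outgrowth, was bright and had ratios of -0.04, -0.15, -0.92 and -0.04. Replicate 3 stood apart at this probe, and the other probes detected on every array had -0.92 and -1.09 there. Pcdh9, with 5 tested probes, had a mean ratio of 0.12 ± 0.23 at its brightest, Pcdh1 0.06 ± 0.22 and Pcdh18 0.18 ± 0.26 (adjusted p = 0.708, 0.762 and 0.504). Pcdh15, a component of the tip links of hair cells, had -0.04, -0.20, 0.07 and 0.22, near background in both genotypes (adjusted p = 0.972).

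**Figure D4:**
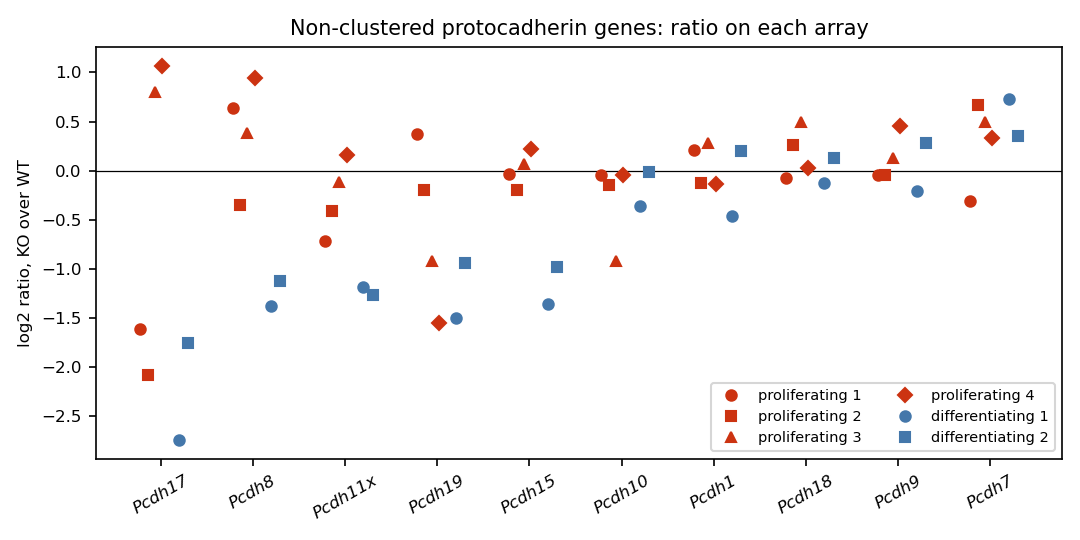
Log2 ratio (KO over WT) of the 10 tested non-clustered protocadherin genes on each array (red, 4 proliferating arrays; blue, 2 differentiating arrays), ordered by the mean of the differentiating arrays. Pcdh17, Pcdh8, Pcdh11x, Pcdh19 and Pcdh15 lie at -0.94 or lower on both differentiating arrays, while each has at least 1 proliferating array above 0.

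In differentiating cells 3 of the 37 protocadherin genes passed, all lower in KO cells, where 0.902% of all genes passed as lower. They were Pcdh15, Pcdh11x and Pcdhb7. Pcdh15 had log2 signals of 7.07 and 6.77 in KO cells, against 8.43 and 7.75 in WT cells. It was well above background on 1 of 2 KO and 2 of 2 WT arrays, and its log2 ratio was -1.17 ± 0.27 (SD, n = 2), or 2.25-fold lower (adjusted p = 0.0232). A dimmer second Pcdh15 probe did not clear the background in the KO channel of any array and was tested only through its WT channels. The filter thus favoured a lower KO value, so its test gives no separate support. Its measured signal was 1.53-fold lower in KO cells (means 6.24 in KO and 6.85 in WT cells). Its limma adjusted p was 0.0486 when probes were tested on their own, with 0.711% of probes passing as lower. Pcdh11x had 6.98 and 7.34 in KO cells, against 8.17 and 8.61 in WT cells, without overlap. Its ratio was -1.23 ± 0.06 (2.34-fold lower, adjusted p = 0.0439). On these 2 arrays Xist was not well above background in either genotype, so its ratio is not informative. The sex-linked Ddx3y had ratios of -0.05 and 0.27 there, and Eif2s3y had -0.81 and -0.11. Pcdhb7 had 8.23 and 8.47 in KO cells, against 9.49 and 9.05 in WT cells, and a ratio of -0.92 ± 0.48 (1.89-fold lower, adjusted p = 0.0330).

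Pcdh17, Pcdh8 and Pcdh19 did not pass. Pcdh17 had log2 signals of 9.44 and 10.25 in KO cells, against 12.18 and 12.004 in WT differentiating cells, a ratio of -2.25 ± 0.70 (adjusted p = 0.264). Pcdh8 had 7.84 and 7.70 in KO cells, against 9.22 and 8.82 in WT cells, a ratio of -1.25 ± 0.18 (adjusted p = 0.0968). Pcdh19 had 9.98 and 10.00 in KO cells, against 11.48 and 10.93 in WT cells (ratio -1.22 ± 0.40, adjusted p = 0.208). A dimmer second Pcdh19 probe, well above background on 3 of the 6 arrays, had ratios of -0.13 and 0.03 (adjusted p = 0.941 among probes). At the brightest probes of Pcdh17, Pcdh8 and Pcdh19, both KO values were below both WT values, as for 15.1% of all genes. Pcdh7 had a ratio of 0.54 ± 0.27 (adjusted p = 0.258). The median of the 10 non-clustered genes was -0.68, and -0.19 over the 9 genes detected in a channel of all 6 arrays and over all 21 tested probes. Without proliferating replicates 3 and 4, 7 members passed in differentiating cells, Pcdh8, Pcdh17, Pcdh19 and Pcdhb3 beside the 3 above, while the share of all genes that passed in either direction was 5.37%, against 3.08% with all arrays.

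The Pcdhb genes stayed below 0 in differentiating cells, with all 21 fitted ratios negative and 20 below 0 on both arrays, against 30.5% of all genes. The same count, 20 genes, was below 0 on all 6 arrays, against 4.06% of all genes. Pcdhb2, Pcdhb12 and Pcdhb13, which passed the filter only through WT channels, are in these counts. The filter favoured a value below 0 for them. The Pcdhb median was -0.37, with array medians of -0.54 and -0.25. The 7 genes that had passed in proliferating cells had differentiating ratios between -0.59 and -0.31. Of these Pcdhb5 (-0.48 ± 0.26, adjusted p = 0.0686), Pcdhb17 (-0.46 ± 0.56, adjusted p = 0.0737), Pcdhb10 (-0.59 ± 0.12, adjusted p = 0.0780) and Pcdhb6 (-0.46 ± 0.36, adjusted p = 0.0813) had the smallest p. The Pcdhb3 ratio was -1.18 ± 0.42 (adjusted p = 0.102). Pcdhb12 and Pcdhb2 did not clear the background in KO differentiating cells. Their measured signals there were 1.13-fold and 1.29-fold lower than in WT cells, and neither passed (adjusted p = 0.542 and 0.164). The 3 Pcdha genes had ratios between -0.39 and -0.04, and the 3 Pcdhg genes between -0.18 and -0.02. The Pcdha9 probe in its own first exon had -0.57 and -0.30 (adjusted p = 0.0780 among probes).

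Neuronal markers were lower in KO than in WT differentiating cells on the same arrays. Of 8 markers 5 passed as lower, the median ratio was -1.16, and summed signals were 10416 to 11759 in KO cells, against 22193 to 24929 in WT cells. Stmn2 was not well above background in KO cells of either condition or in WT proliferating cells. Of 5 tested interneuron markers 1 passed as lower, with summed signals of 558 to 814 in KO cells, against 1878 to 3752 in WT cells. Oligodendrocyte lineage markers had summed signals of 172336 to 213098 in KO cells, against 65803 to 84944 in WT cells. Of all 18062 genes, 394 passed as higher and 163 as lower in this comparison. Of 8 astrocyte markers 2 passed as higher, with array medians of 1.05 and 1.29 and summed signals of 95471 to 135273 in KO cells, against 74399 to 89750 in WT cells. Of 4 ependymal markers 2 passed as higher and all 4 were above 0, with sums of 2295 to 3927 in KO cells, against 1466 to 1593 in WT cells. The part of these in the protocadherin differences was not tested.

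The KO effect was then compared between the conditions. No protocadherin gene passed for the difference of the KO effects (0 of 37 by limma, 9 at an unadjusted p under 0.05), where 0.0498% of all genes passed. The 9 were Pcdh15 (-1.18, adjusted p = 0.101), Pcdh8 (-1.65, adjusted p = 0.185) and Pcdh11x (-0.96, adjusted p = 0.226), with a lower ratio in differentiating cells, and Pcdhb5, Pcdhb6, Pcdhb14, Pcdhb17, Pcdhb21 and Pcdhb22, with differences between 0.32 and 0.58 towards a smaller deficit (adjusted p between 0.222 and 0.390). Without proliferating replicates 3 and 4 no member passed either, with 7 at an unadjusted p under 0.05. A different KO effect in the 2 conditions was thus not shown for any member. The difference is also one between slides.

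After mitogen withdrawal some protocadherin genes rose in each genotype. In KO cells 9 of 37 rose and none fell, and in WT cells 8 rose and none fell, where 9.14% and 9.03% of all genes passed as higher and 6.09% and 5.89% as lower. No Pcdhg gene passed in either genotype and no non-clustered gene passed in KO cells, and 5 of the 37 had values below 0 in KO cells and 8 in WT cells. The 9 in KO cells were 8 Pcdhb genes (Pcdhb5, Pcdhb6, Pcdhb10, Pcdhb14, Pcdhb16, Pcdhb20, Pcdhb21 and Pcdhb22) and the shared probe named Pcdha9. The 8 in WT cells were Pcdhb7, Pcdhb10, Pcdhb16, the shared Pcdha9 probe and the non-clustered Pcdh1, Pcdh8, Pcdh11x and Pcdh15. Without proliferating replicates 3 and 4, 2 members rose in KO cells and 5 in WT cells. In that fit 6.64% of all genes passed in either direction in KO cells and 5.46% in WT cells. The comparisons in KO and WT cells share arrays, and the test of their difference is that of the KO effects above. Every value here is also one between the 2 slides.

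Pcdhb16 had the smallest p in both genotypes. Its log2 signals were 8.11 and 8.29 in differentiating against 7.10, 7.03, 6.94 and 7.29 in proliferating KO cells, and 8.66 and 8.59 in differentiating against 7.59, 7.53, 7.51 and 7.90 in proliferating WT cells. The log2 change was 1.11 (SE 0.16, adjusted p = 0.00360) in KO cells and 0.99 (SE 0.16, adjusted p = 0.00484) in WT cells. Pcdhb10 changed by 1.13 in KO cells (adjusted p = 0.0196) and 1.00 in WT cells (adjusted p = 0.0306). The shared Pcdha9 probe changed by 0.88 in KO cells (adjusted p = 0.0452) and 1.19 in WT cells (adjusted p = 0.0159). Pcdhb20 had the largest change among the Pcdhb genes that passed in KO cells, 1.20 (adjusted p = 0.0263), and 0.84 in WT cells (adjusted p = 0.0833). Pcdhb21 changed by 1.18 in KO cells (adjusted p = 0.0387) and 0.61 in WT cells (adjusted p = 0.233). The Pcdhb median was 0.73 in KO cells and 0.51 in WT cells, while all genes had medians of 0.05 in both.

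Pcdh8 rose most in WT cells. It had log2 signals of 9.22 and 8.82 in differentiating WT cells, against 6.42, 7.41, 6.42 and 7.34 in proliferating WT cells, a change of 2.12 (SE 0.49, 4.36-fold, adjusted p = 0.0201). In KO cells it had 7.84 and 7.70 in differentiating cells, against 7.05, 7.05, 6.80 and 8.29 in proliferating cells, a change of 0.47 (adjusted p = 0.533). Its proliferating signals were dim, with 4 of 4 KO and 2 of 4 WT arrays well above background. Pcdh15 changed by 1.46 in WT cells (2.74-fold, adjusted p = 0.00587) and 0.28 in KO cells (adjusted p = 0.458). Pcdh11x changed by 1.36 in WT cells (adjusted p = 0.0185) and 0.40 in KO cells (adjusted p = 0.385), and Pcdh1 by 0.65 (adjusted p = 0.0295) and 0.47 (adjusted p = 0.0831). Of 8 neuronal markers, 3 rose in KO cells (median 0.62) and 7 in WT cells (median 1.73). Of 8 astrocyte markers, 6 rose in KO cells (median 2.62) and 4 in WT cells (median 1.82). Of 12 oligodendrocyte lineage markers, 4 rose and 1 fell in KO cells (median 1.70), and 1 rose and 1 fell in WT cells (median 1.63). The part of these markers in the changes was not tested.

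**Figure D5:**
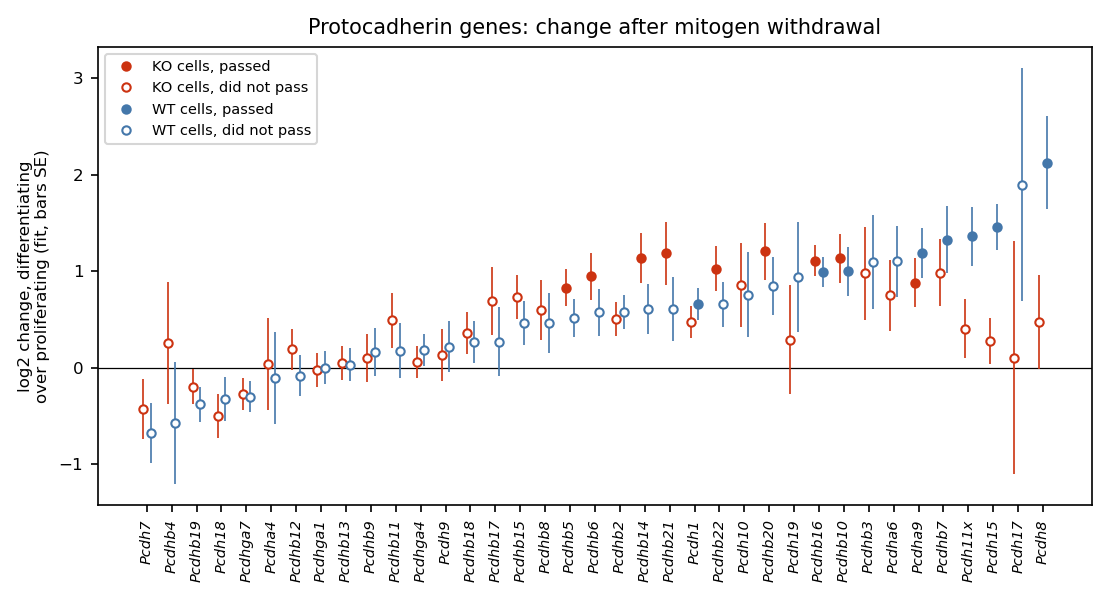
Fitted log2 change of each tested protocadherin gene, differentiating over proliferating, in KO cells (red) and WT cells (blue), with bars of 1 SE, filled where the gene passed. Pcdh8, Pcdh15 and Pcdh11x lie at 1.36 or higher in WT cells and at 0.47 or lower in KO cells. Pcdh17 has the widest bars.

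RefSeq promoters (GRCm38.p6, 250 bases before to 50 after the start) were looked up to show the CG sites at which DNA methyltransferases act. Entries were found for 10 members, none of them clustered. The promoters of Pcdh15 and Pcdh8 are printed because these members rose in WT cells, with each CG in capitals (a CG reads the same on both strands), from chr10:73821617-73821916 on the plus strand and chr14:79771263-79771562 on the minus strand.
Pcdh15: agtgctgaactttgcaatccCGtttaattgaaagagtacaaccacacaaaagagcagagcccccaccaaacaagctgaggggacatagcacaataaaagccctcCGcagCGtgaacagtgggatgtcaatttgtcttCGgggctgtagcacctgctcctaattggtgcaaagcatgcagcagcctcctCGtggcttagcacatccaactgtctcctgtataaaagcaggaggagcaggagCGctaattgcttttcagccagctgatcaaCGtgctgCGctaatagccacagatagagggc
Pcdh8: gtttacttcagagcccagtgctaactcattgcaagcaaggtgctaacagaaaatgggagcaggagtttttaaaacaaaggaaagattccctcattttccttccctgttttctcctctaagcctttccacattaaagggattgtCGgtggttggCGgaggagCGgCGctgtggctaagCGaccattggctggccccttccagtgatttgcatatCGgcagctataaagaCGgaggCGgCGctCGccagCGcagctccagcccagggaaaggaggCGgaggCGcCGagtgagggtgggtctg
The Pcdh15 promoter holds 8 CG and that of Pcdh8 14, against a median of 7 over 32851 promoters, of which 94.6% hold at least 1. The other members ranged from 4 in Pcdh20 to 26 in Pcdh17, which 16.9% of promoters reach. Methylation was not measured here, and the counts are a description of sequence.

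Other genes of the pathway were taken from lists of known functions. Of 20 tested regulators of clustered protocadherin promoters and chromatin, 1 fell in KO proliferating cells, Dnmt3a itself, and none rose. In differentiating cells Dnmt3a fell and Hdac1, a histone deacetylase, rose by 0.90 (adjusted p = 0.0245). Ctcf, the cohesin genes and the other regulators did not pass in either. After withdrawal the cohesin subunits Stag2 (-1.17 in KO and -1.11 in WT cells) and Rad21 (-1.07 and -0.83) fell in both genotypes, with Hdac2 (-1.49), Smc1a (-0.86) and Pds5b (-0.73) also falling in KO cells, and Hdac1 (-1.02) falling and Stag1 (0.97) rising in WT cells. Of 29 binding partners and processing enzymes none passed for KO against WT. After withdrawal Adam10, which sheds cadherin ectodomains, fell in KO cells (-1.27) and WT cells (-1.29), and the actin regulators Brk1 and Abi1 rose in both (0.74 and 1.01 in KO cells, 0.79 and 0.97 in WT cells). In all, 4 of the 29 partners rose and 3 fell in KO cells, where 9.14% of all genes rose and 6.09% fell, and 2 rose and 2 fell in WT cells, where 9.03% rose and 5.89% fell. These shares are near those of all genes. Of 20 tested other cadherin superfamily genes, Clstn3 (-1.37, adjusted p = 0.0285) and Celsr3 (-0.59, adjusted p = 0.0421) were lower in KO differentiating cells, and none passed in proliferating cells. Both rose on withdrawal in WT cells, by 2.05 and 0.67, where Cdh20 fell (-1.26), and in KO cells Cdh4 (-1.47) and Celsr2 (-0.57) fell. Celsr3 guides axon tracts and Clstn3 acts at synapses.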

How the data were processed

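Gene expression was measured on 6 two-colour Agilent arrays. Per the file headers, the deposited scanner files hold intensity values (mean and background signals per spot and dye) from Feature Extraction 9.5.1.1 of array design 014868. The authors' deposited value table holds log10 ratios of KO over WT, used only to check direction. In limma 3.58.1 (R 4.3.3), mean signals were background-corrected by normexp with an offset of 50, normalized within arrays by loess, and repeat spots averaged. A gene was taken at its brightest probe and was tested if 2 or more arrays had it well above background in 1 or both channels. KO over WT was fitted on log2 ratios over all 6 arrays with a coefficient for each condition plus a term for dye. Withdrawal was fitted on separate channels after Aquantile scaling, with an intraspot correlation of 0.764. Tests were 2-sided, with Benjamini-Hochberg adjustment over all genes. Values after ± are SD over arrays, and p-values measure only the spread between these arrays, which may be technical. Where a group did not clear the background, the higher of the dim probe's own signal and the dimmest detected probe was taken. For every such fold given this was the probe's own signal, so these are measured folds and not bounds. The script steps were tested on simulated data. Genes named are those that passed, those detected in every channel, the 4 of smallest p per class for KO over WT, X-linked members, and list members that passed, up to 4 per comparison. The members and lists were chosen with earlier results of these data known. Alternatives covered the background correction, centring, dye term, filters, probes, array weights, a replicate block and leaving out arrays.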

Additional observations from a re-analysis of the deposited data

Results flagged for a closer look

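In 2 of the 37 genes tested, 1 of the 4 proliferating arrays stood far from the other three, and chance gives such a gap in about 1 of 20 groups. The Pcdh10 log2 ratio (KO over WT) was -0.92 on proliferating replicate 3, while the other three arrays lay between -0.15 and -0.04. The shared probe named Pcdhga7 had 0.23 on proliferating replicate 1, while the other three lay between -0.16 and -0.11.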

How the results depend on the processing

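Across the alternatives, the called values of named members kept their direction in 352 of 352 cases and fell short of the threshold in 153. For KO over WT in proliferating cells, 12 protocadherin genes passed with Agilent's processed signals, all 12 Pcdhb, and 0 when the 4 proliferating arrays were fitted alone. With processed signals 1.54% of all genes passed there, against 0.952% in the reported fit. Processed signals gave medians of -0.97 (clustered) and -1.04 (Pcdhb) there, -0.59 (Pcdhb) in differentiating cells, and 0.97 (clustered) and 1.15 (Pcdhb) for withdrawal in KO cells. In differentiating cells 10 members (7 Pcdhb) passed with array weights and 8 (3 Pcdhb) with those arrays alone and no dye term, where 9.47% and 8.78% of all genes passed, against 3.08% in the reported fit. With array weights 1 passed for the difference, where 0.687% of all genes passed, against 0.0498% in the reported fit. The non-clustered median in differentiating cells was -0.13 with no filter and -0.19 with detection on all 6 arrays or every probe on its own. For withdrawal in KO cells, the clustered median was 0.50 with no filter and the non-clustered median 0.18 with every probe. Replicate numbers were not used as pairs in the reported fit. Deviations of proliferating and differentiating arrays of the same number had correlations of -0.37 and -0.29. Those arrays carried KO RNA in opposite dyes, so the correlations cannot show whether the samples were paired. With the replicate block 19 members (15 Pcdhb) passed in KO withdrawal and 16 (9 Pcdhb) in WT withdrawal, where 40.2% and 38.5% of all genes passed, against 15.2% and 14.9% without it. Without proliferating replicates 3 and 4, 2 members (Pcdhb21 and Pcdh17, 1 Pcdhb) passed in proliferating cells, 7 (2 Pcdhb) in differentiating cells, 2 in KO withdrawal, both Pcdhb, and 5 in WT withdrawal. Leaving out 1 array at a time gave 0 to 3 members in proliferating cells (Pcdhb 0 to 3), 0 to 3 in differentiating cells (Pcdhb 0 to 1), 0 to 0 for the difference, 0 to 15 in KO withdrawal (Pcdhb 0 to 12) and 0 to 15 in WT withdrawal (Pcdhb 0 to 9). The share of all genes that passed also varied between these fits. It was largest in withdrawal without proliferating replicate 4, at 26.2% in KO and 21.2% in WT cells. Without proliferating replicate 1 it was 0.947% in proliferating and 2.96% in differentiating cells, the largest there. With 1 array left out, medians (clustered, non-clustered, Pcdhb) ran from -0.53 to -0.43, -0.07 to 0.11 and -0.63 to -0.51 in proliferating cells, and from -0.36 to -0.31, -0.88 to -0.49 and -0.42 to -0.37 in differentiating cells. For the difference they ran from 0.09 to 0.22, -0.52 to -0.26 and 0.21 to 0.33, for KO withdrawal from 0.58 to 0.80, 0.20 to 0.39 and 0.62 to 0.98, and for WT withdrawal from 0.39 to 0.62, 0.65 to 1.04 and 0.41 to 0.62. The cause of these shifts was not tested. The Pcdhb counts and medians, and the fit of the differentiating arrays with no dye term, were chosen after seeing the data. Slide as a random block was not run because each condition lay on a slide of its own, and the differentiating arrays alone with a dye term leave no residual degree of freedom.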
